A study of Mus musculus with 10 samples.

Results

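The genes of 9 Wnt ligands were followed through 5 cell lineages sorted from adult mouse lung: Wnt2, Wnt2b, Wnt4, Wnt5a, Wnt7a, Wnt7b, Wnt9a, Wnt10b and Wnt11. They were chosen by name, and 8 of the 9 had a row among the 14854 genes of the tables. Wnt7b had no row there and was not analysed here. RNA-seq was done on 10 libraries of cells separated by flow cytometry, 2 libraries per lineage, labelled as lung mesenchyme. Cells of the Axin2:Pdgfra, Axin2, Pdgfra and Negative groups came from adult mice that carry Axin2CreERT2, a tdT reporter and PdgfraEGFP, and they were sorted by both labels, by tdT alone, by GFP alone or by neither. Pdgfra library 1 is titled EGFP_1 and not Pdgfra, and it was placed in that group by its lineage label, GFP, which it shares with Pdgfra library 2. The Wnt2 group came from adult mice with Wnt2CreERT2 and R26REFYP, so that lineage and mouse line cannot be told apart for it. CreERT2 is a recombinase active after tamoxifen that marks the cells in which its driver gene was on, and their descendants, so the label need not track the present level of Axin2 or Wnt2. EGFP from the Pdgfra locus reports that gene at the time of the sort. The sources used here give neither tamoxifen dose nor animal numbers or pooling. Whether the 2 libraries of a lineage are from different animals is also not stated, and the p-values reflect only how far these libraries spread, which may be technical.

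Wnt proteins are secreted glycoproteins that carry a lipid added by Porcn and are brought to the cell surface by Wls. On the receiving cell they bind Frizzled receptors, and with an Lrp coreceptor they stabilise beta-catenin, which turns on targets such as Axin2. Wnt5a and Wnt11 are known mainly for routes that do not need beta-catenin. In the mouse lung, mesenchymal Wnt2 and Wnt2b specify the lung field in the embryo, and Wnt ligands from fibroblasts help maintain alveolar type 2 cells, the surfactant-producing stem cells of the alveolus, in the adult.

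Start regions in the RefSeq promoter table (mouse build GRCm38.p6) matched 7 of the 9 listed ligands; Wnt5a and Wnt7b had no entry. The 250 bases before the start of Wnt7a, at chr6:91411354-91411603, and of Wnt10b, at chr15:98778151-98778400, are shown because these ligands fell together in the comparison of Pdgfra with Negative cells. The same stretch of Wnt2, at chr6:18030446-18030695, is shown because the CreERT2 of the Wnt2 group is named after that gene. The 3 genes lie on the minus strand and are written 5′ to 3′ in the direction of transcription. Capitals mark matches on either strand to the Sp factor motif GGGCGG or to an E box motif, which is spelled CAGGTG.
Wnt7a: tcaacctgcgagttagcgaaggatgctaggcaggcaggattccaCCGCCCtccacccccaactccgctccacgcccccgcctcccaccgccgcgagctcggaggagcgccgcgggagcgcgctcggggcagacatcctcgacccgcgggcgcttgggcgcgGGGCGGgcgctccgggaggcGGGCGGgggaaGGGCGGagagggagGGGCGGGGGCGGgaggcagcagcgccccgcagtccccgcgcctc
Wnt10b: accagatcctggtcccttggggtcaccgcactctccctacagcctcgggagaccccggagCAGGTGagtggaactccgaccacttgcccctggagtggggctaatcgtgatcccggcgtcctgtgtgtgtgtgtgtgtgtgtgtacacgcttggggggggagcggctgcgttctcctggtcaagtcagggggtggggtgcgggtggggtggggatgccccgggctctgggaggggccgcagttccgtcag
Wnt2: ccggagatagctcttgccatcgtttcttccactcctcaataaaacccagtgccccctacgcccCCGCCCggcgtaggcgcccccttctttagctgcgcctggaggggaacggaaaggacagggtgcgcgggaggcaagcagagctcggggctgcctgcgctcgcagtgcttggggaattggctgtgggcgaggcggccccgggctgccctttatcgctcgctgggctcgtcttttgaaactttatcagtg
The Wnt7a stretch held 6 matches to the Sp factor motif and 0 to the E box motif. The Wnt10b stretch held 0 and 1, and the Wnt2 stretch 1 and 0. Among 32851 windows of the same length in the table, 32.7% held the Sp factor motif and 17.2% the E box motif. The TATA box motif, searched as TATAAA, was absent from the 3 stretches and present in 12.4% of all windows. The core of the Tcf and Lef site, searched as CTTTG, was absent from the 3 stretches and present in 48.6% of all windows. No matches overlapped. Wnt7a and Wnt10b shared no match to these 4 motifs in this stretch, and neither a match nor its lack says whether a factor is bound.

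Values are on the log2 scale of the deposited tables, in which the libraries have near-identical distributions with medians of 9.1 to 9.11. They are not stated to be per length, so levels were compared between libraries and not between genes. In each library 2.09% to 18.4% of the genes share the lowest value, which lies between 1 and 2.67, and such a ligand is said here to be at the lowest value. Pdgfra, the gene of the EGFP reporter, was at 14.64 to 15.21 in the 4 libraries with the GFP label, and at 12 to 13.49 in the 4 libraries of the same line without it. In the Wnt2 libraries, of the other mouse line, Pdgfra was highest of all, at 16.05 and 16.25. Xist, the RNA that silences an X chromosome in female cells, was at 7.81 in Wnt2 library 2 and 8.57 in Negative library 2. It was at 16.68 or more in the other 8 libraries. Results without both low-Xist libraries are given below where this ended a call, among the calls that were recomputed. F-test calls of genes other than ligands and all calls of cell type markers were not recomputed, and whether they held is not shown. Ddx3y, a Y-linked gene, was at 11.48 in Wnt2 library 2 and 10.74 in Negative library 2. It was at 8.15 in Wnt2 library 1 and at the lowest value in the other 7. Leaving out the low-Xist pair thus does not remove Y-linked signal from the Wnt2 group. All 8 ligands passed the filter on low values (at least 6 in at least 2 libraries), as did 14177 genes in all. Wnt7a passed through its 2 Negative libraries alone, and Wnt10b through these and 1 other, so a difference was built into their selection and no count over the ligands is used as support. In bulk samples, fewer cells of a type and less RNA per cell cannot be told apart.

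**Figure D1:**
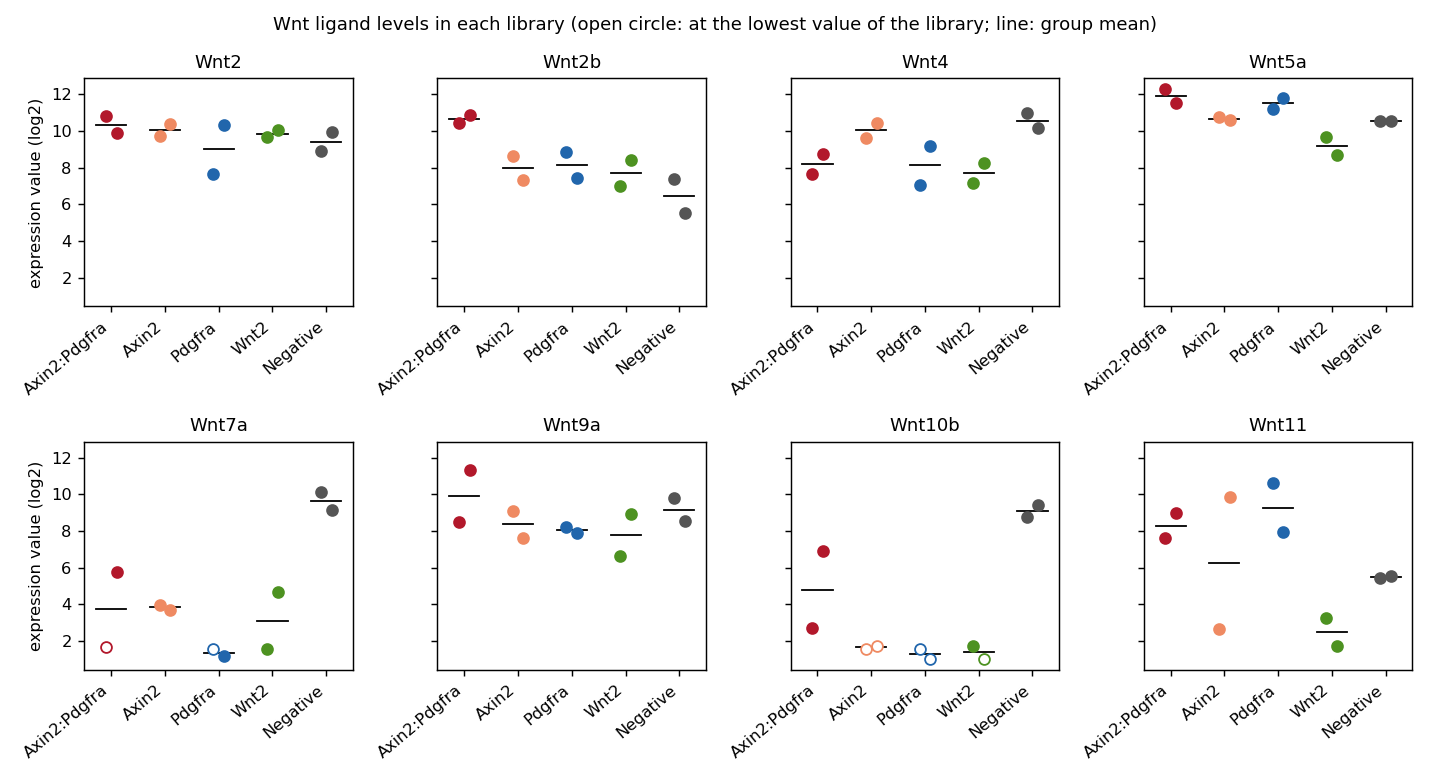
Level of each ligand (log2 expression value, vertical axis) in each of the 10 libraries, by lineage, with Negative cells at the right. Each point is a library, the line is the mean of 2 libraries, and open circles lie at the lowest value of that library. Wnt7a and Wnt10b stand high in Negative cells, Wnt2b in Axin2:Pdgfra cells, and Wnt5a stands low in Wnt2 cells.

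Wnt7a and Wnt10b, ligands that can signal through beta-catenin, were high in both Negative libraries and low in nearly all libraries of the labelled lineages. Wnt7a was at 1.7 and 5.77 in Axin2:Pdgfra, 3.96 and 3.7 in Axin2, 1.55 and 1.16 in Pdgfra, 1.55 and 4.65 in Wnt2, and 10.12 and 9.16 in Negative libraries. Axin2:Pdgfra library 1 and Pdgfra library 1 were listed at the lowest value, and no labelled library reached the Negative libraries. Wnt10b was at 2.7 and 6.9 in Axin2:Pdgfra, 1.55 and 1.75 in Axin2, 1.55 and 1 in Pdgfra, 1.75 and 1 in Wnt2, and 8.77 and 9.4 in Negative libraries. Both Axin2 and both Pdgfra libraries were listed at the lowest value for Wnt10b, as was Wnt2 library 2. For both ligands the 2 Negative libraries exceeded the other 8, as they did for 5.83% of all genes tested. Nothing is read from this, since both ligands passed the filter through these libraries, Wnt7a through them alone.

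In Pdgfra cells against Negative cells, both ligands fell. Of all genes tested, 0.875% were called lower; nothing is read from the ligands' count beside it, since both ligands passed the filter through their Negative libraries. Wnt7a averaged 1.35 ± 0.28 in Pdgfra and 9.64 ± 0.68 in Negative cells (log2, SD, n = 2 each), a difference of -8.29 ± 1.99 (SE; 95% interval -12.56 to -4.01; limma, BH-adjusted p = 0.0398). The size of this difference depends on the lowest values, since Pdgfra library 1 was at its lowest and Pdgfra library 2, at 1.16, was at the next value above its own. With all values under 6 raised to 6, which removes the differing lowest values, the difference of Wnt7a was -3.64 (limma, adjusted p = 0.0118). All labelled libraries then stand at 6 for Wnt7a, so their spread is removed too and the lower p is no support. Wnt10b had an adjusted p of 0.0497 (limma), and no fold is given because both Pdgfra libraries were listed at the lowest value. The other 6 ligands did not pass in this comparison; Wnt4 was at -2.44 ± 1.02 (limma, adjusted p = 0.224) and Wnt11 at 3.77 ± 2.12 (0.381). Both calls held without Axin2:Pdgfra library 1 or Axin2:Pdgfra library 2 (limma, adjusted p = 0.0325 and 0.0359 for Wnt7a, 0.039 and 0.0411 for Wnt10b). They ended without any one of the other 8 libraries, at adjusted p of 0.0581 to 0.169 for Wnt7a and 0.0693 to 0.187 for Wnt10b, and without both low-Xist libraries, at 0.163 and 0.252.

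The same contrast in Axin2 cells, Axin2 against Negative, called 0 of the 8 ligands, beside 0.6% of all genes (limma). At unadjusted p under 0.05 there were 2 ligands and 14.2% of all genes. Wnt7a averaged 3.83 ± 0.18 in Axin2 and 9.64 ± 0.68 in Negative cells, a difference of -5.82 ± 1.99 (limma, adjusted p = 0.192). With values under 6 raised to 6 this difference was -3.64 and passed (limma, adjusted p = 0.0302). That setting removes all spread of Wnt7a among the labelled libraries, so nothing is read from this pass. Wnt10b had an adjusted p of 0.097 (limma), with both Axin2 libraries at the lowest value. The interaction asked whether adding the Pdgfra label had another effect on Axin2 cells than on cells without it. It called 0 ligands and 0 genes (limma). At unadjusted p under 0.05 there were 2 ligands and 1296 genes in all (9.14%). The interaction gave adjusted p of 0.357 for Wnt10b and 0.429 for Wnt7a beside unadjusted p of 0.00153 and 0.0114 (limma). For both ligands, adding the 2 single-label falls would put Axin2:Pdgfra cells below the lowest value of any library. A positive interaction was thus built in, and nothing is read from these p-values.

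Summed markers of alveolar type 1, airway, mesothelial and erythroid cells were highest in Negative libraries, as were Wnt7a and Wnt10b. Among the labelled lineages the alveolar type 1 and airway sums were on average highest in Pdgfra cells. There Wnt7a was at the lowest value of a library or the next above it, and Wnt10b was at the lowest value. The order of the labelled lineages in these ligands thus depends on the lowest values, and it was not compared with that of the markers. The summed level of 7 markers of alveolar type 1 cells, the flat cells of gas exchange, was 14.13 to 14.5 in Axin2:Pdgfra, 14.74 to 15.54 in Axin2, 15.35 to 16.11 in Pdgfra, 13.94 to 15.02 in Wnt2 and 17.7 to 17.8 in Negative libraries (log2). All 7 were above the lowest value in all 10 libraries. Of them 3 (Rtkn2, Ager and Clic5) were called lower in Pdgfra than in Negative cells, where 0.875% of all genes were. The 7 airway and pan-epithelial markers summed to 14.03 to 14.39, 14.67 to 15.23, 15.31 to 15.74, 12.26 to 13.6 and 16.16 to 16.45 in the same order of lineages; 1 of them, Krt19, was lower in Pdgfra than in Negative cells. Of that list, Foxj1 was at the lowest value in Axin2:Pdgfra library 1 and Axin2 library 2, and Epcam in Pdgfra library 1. The 6 mesothelial markers with a row, Krt19 among them, summed to 13.68 to 13.82 in Negative libraries and to 13.57 or less elsewhere. For the 6 alveolar type 2 markers the Pdgfra range of 15.98 to 16.73 overlapped the Negative range of 16.01 to 17.04, and 0 of the 6 passed. Erythroid markers summed to 15.68 to 16 in Negative libraries and to 11.01 or less elsewhere, and 7 of 8 fibroblast markers, a list that holds the sorted gene Pdgfra, were higher in Pdgfra than in Negative cells, as were 2.03% of all genes tested. The part of these cell types in the ligand differences was not tested.

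**Figure D2:**
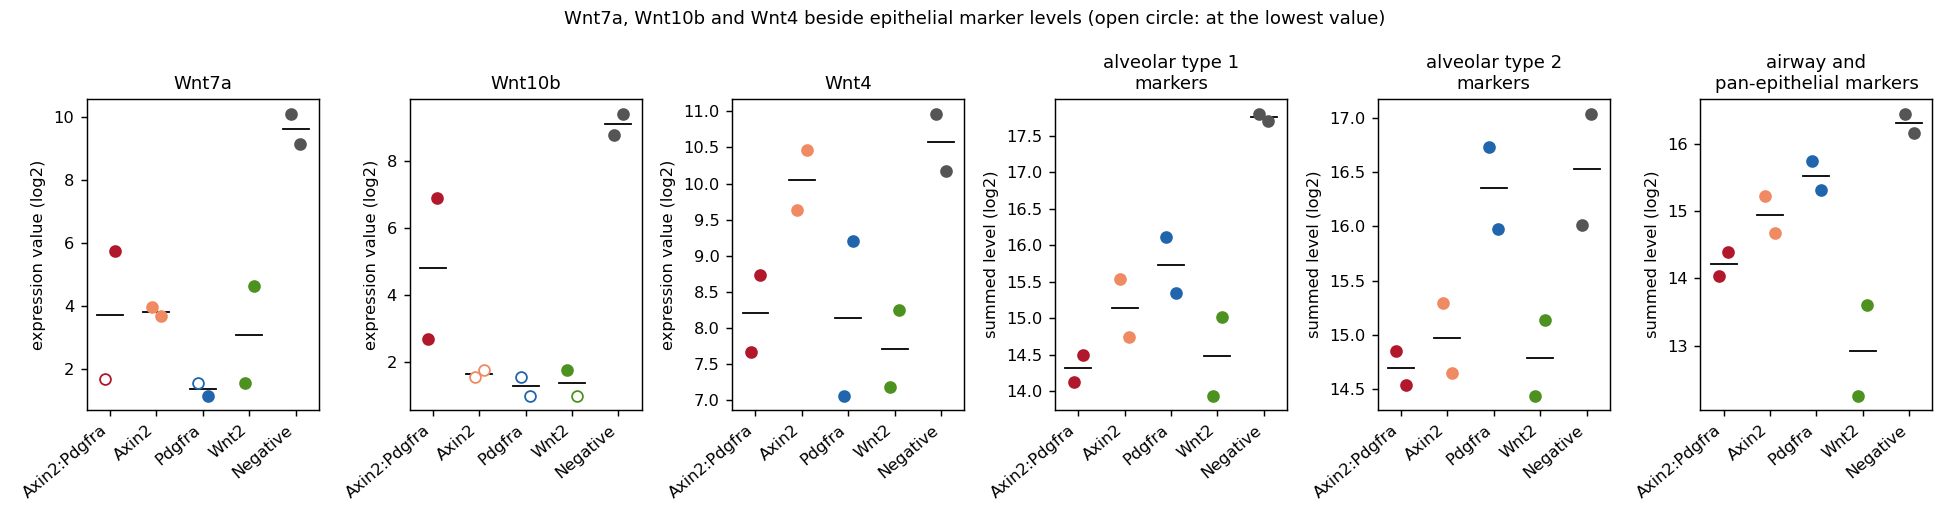
Levels of Wnt7a, Wnt10b and Wnt4 (log2 expression value) beside the summed levels of 3 lists of epithelial markers (log2 of the sum of linear values), in each library by lineage; points are libraries, lines are means of 2, and open circles lie at the lowest value. The vertical scales differ between panels. Alveolar type 1 markers reach 17.7 to 17.8 in Negative libraries, where Wnt7a and Wnt10b are also highest, and alveolar type 2 markers overlap between Pdgfra and Negative cells.

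Wnt4, a ligand with roles in kidney, gonad and mammary gland, was lower in both lineages with the Pdgfra label than in their partners without it, though no test passed. It was at 7.67 and 8.73 in Axin2:Pdgfra, 7.06 and 9.2 in Pdgfra, 7.18 and 8.24 in Wnt2, 9.64 and 10.47 in Axin2, and 10.97 and 10.18 in Negative libraries. Axin2:Pdgfra, Pdgfra and Wnt2 overlapped each other and lay below Axin2 and Negative, which overlapped in turn. How many of all genes split in this way was not counted. Averaged over both pairs, the lineages with the Pdgfra label were at 8.16 and those without at 10.31, a difference of -2.15 ± 0.72 (95% interval -3.7 to -0.6; limma, adjusted p = 0.1). In this contrast of 4 libraries with 4, 6.48% of all genes and 0 of the 8 ligands were called, while 4 ligands and 20.4% of all genes were at unadjusted p under 0.05 (limma). Besides Wnt4 these were Wnt7a at -4.19 ± 1.41, Wnt5a at 1.11 ± 0.41 and Wnt2b at 2.2 ± 0.86, with adjusted p of 0.101, 0.138 and 0.157 (limma).

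Wnt5a, a ligand made by lung mesenchyme that limits distal growth in the mouse embryo, was the ligand that differed among the 5 lineages (limma F-test, adjusted p = 0.0462). It was 1 of 8 ligands called, beside 8.2% of all genes, a share near this background. Wnt5a was at 9.7 and 8.7 in Wnt2, 12.31 and 11.53 in Axin2:Pdgfra, 11.23 and 11.81 in Pdgfra, 10.77 and 10.58 in Axin2, and 10.56 and 10.54 in Negative libraries. Both Wnt2 libraries lay below the other 8, as they did for 4.11% of all genes tested. The ranges of Axin2:Pdgfra and Pdgfra overlapped above the rest, and Axin2 lay just above Negative. Wnt10b and Wnt7a missed the threshold of the F-test (limma, adjusted p = 0.0601 and 0.09), and the other 5 ligands had adjusted p of 0.199 to 0.733.

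In the Wnt2 group Wnt5a averaged 9.2 ± 0.7 (SD, n = 2), against 11.17 for the mean of the other 4 groups, so that it fell by 1.96 on the log2 scale (SE 0.46; 95% interval -2.96 to -0.97; limma, adjusted p = 0.0412). It was the 1 ligand of 8 called lower, beside 1.44% of all genes. The call ended without Axin2:Pdgfra library 1 (limma, adjusted p = 0.0671), Axin2 library 1 (0.0768), Axin2 library 2 (0.072), Pdgfra library 1 (0.0699), Pdgfra library 2 (0.0929), Wnt2 library 1 (0.167) or Wnt2 library 2 (0.628). The F-test call of Wnt5a held without Negative library 0 (limma, adjusted p = 0.0387) or Negative library 2 (0.0469) and ended without any one of the other 8, at 0.0596 to 0.273. Without both low-Xist libraries the adjusted p was 0.274 for the F-test and 0.493 in the Wnt2 group, where the difference was -1.47. The difference in Wnt2 cells lay between -2.46 and -1.47 over the 10 fits with 1 library left out.

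Markers of mural, mesothelial and airway cells were also at their lowest summed levels in the Wnt2 group. Pericyte markers summed to 11.89 to 12.03 in Wnt2 libraries and to 13.43 or more in all others, with 5 of 7 called lower, where 1.44% of all genes were. Smooth muscle markers summed to 12.59 to 12.96 in Wnt2 libraries and to 13.25 or more elsewhere, with 3 of 6 called lower. Mesothelial markers, 6 of 7 with a row, summed to 8.65 to 10.12 in Wnt2 libraries and to 12.11 or more elsewhere, with 1 called lower and 0 at the lowest value in Wnt2 libraries. Fibroblast markers summed to 16.92 to 17 in Wnt2 libraries, within the range of 14.47 to 17.62 of the others; Dcn and Col14a1 were called lower and Pdgfra higher. Airway and pan-epithelial markers summed to 12.26 to 13.6 in Wnt2 libraries and to 14.03 or more elsewhere, with 0 of 7 at the lowest value in Wnt2 libraries. Of these, Scgb1a1, a club cell gene, was called lower (-2.28 ± 0.29, limma, adjusted p = 0.00105). Alveolar type 1 and type 2 markers overlapped between Wnt2 and other libraries, with 2 of 7 and 1 of 6 called lower. The part of these cell types in the difference of Wnt5a was not tested.

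Over the 10 libraries the genes with levels most like those of Wnt5a were Pi16, a marker of adventitial fibroblasts, Dcn, a collagen-binding proteoglycan, and Matn2, a matrix adaptor protein. Pearson's r was 0.964, 0.963 and 0.959, and Spearman's rho 0.952, 0.976 and 0.927, described over 10 libraries that fall in 5 groups, as the highest r among 10156 genes above the lowest value in all libraries. Pi16 was at 5.55 and 2.06 in Wnt2, 13.14 and 12.61 in Axin2:Pdgfra, 9.63 and 11.9 in Pdgfra, 9.49 and 8.55 in Axin2, and 6.55 and 9.36 in Negative libraries. The genes were picked for likeness out of many, and their r has no test.

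**Figure D3:**
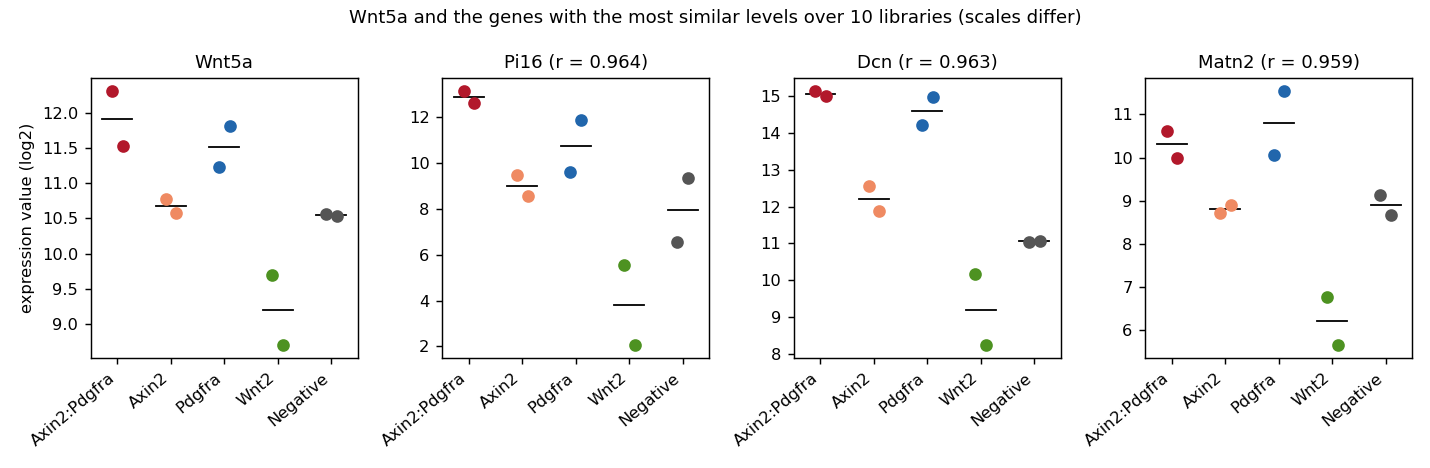
Wnt5a and the 3 genes with the highest Pearson's r to it, as log2 expression value in each library by lineage; points are libraries, lines are means of 2, and vertical scales differ. In each panel both Wnt2 libraries lie below all others, and the Axin2:Pdgfra and Pdgfra libraries lie at the top.

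Wnt11, which like Wnt5a acts mainly without beta-catenin, was at 3.23 and 1.75 in Wnt2, 7.62 and 8.97 in Axin2:Pdgfra, 10.6 and 7.95 in Pdgfra, 2.64 and 9.88 in Axin2, and 5.46 and 5.55 in Negative libraries. The 2 Axin2 libraries lay at opposite ends, so the Wnt2 range overlapped that of Axin2 and lay below the other 3 lineages. Wnt11 averaged 2.49 ± 1.05 in the Wnt2 group and 7.34 over the other 4, a difference of -4.85 ± 1.67 (limma, adjusted p = 0.187). It passed without Axin2 library 1, at -5.76 (limma, adjusted p = 0.0494). With values under 6 raised to 6 the difference was -1.88 (0.454). Over the 8 ligands the median difference in Wnt2 cells was -1.53, beside 0.13 over all genes tested (-1 beside -0.02 with values under 6 raised to 6). Nothing is read from these medians, since Wnt7a and Wnt10b passed the filter through libraries of the groups set against Wnt2.

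Wnt2, the gene whose locus names the Wnt2 lineage, was not highest there. It was at 9.67 and 10.04 in Wnt2, 10.82 and 9.9 in Axin2:Pdgfra, 9.71 and 10.4 in Axin2, 7.68 and 10.33 in Pdgfra, and 8.89 and 9.95 in Negative libraries. The ranges of all neighbouring lineages overlapped, and the spread between the 2 Pdgfra libraries exceeded that between any group means. The difference of Wnt2 cells from the other 4 groups had a 95% interval of -1.38 to 1.68 (limma, adjusted p = 0.946). The data are thus compatible with any difference within it, and the smallest detectable difference was not worked out. The F-test over lineages gave an adjusted p of 0.733 (limma).

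Wnt2b, the close relative of Wnt2, was highest in cells with both labels. It was at 10.47 and 10.87 in Axin2:Pdgfra, 8.63 and 7.31 in Axin2, 8.88 and 7.43 in Pdgfra, 7 and 8.45 in Wnt2, and 7.37 and 5.55 in Negative libraries. Both Axin2:Pdgfra libraries exceeded the other 8, as they did for 4.34% of all genes tested, and the other 4 lineages overlapped their neighbours. Wnt2b averaged 10.67 ± 0.28 in Axin2:Pdgfra and 7.97 ± 0.93 in Axin2 cells, a difference of 2.7 ± 1.21 (95% interval 0.11 to 5.29; limma, adjusted p = 0.328). Against Pdgfra cells, at 8.16 ± 1.03, it differed by 2.51 ± 1.21 (95% interval -0.08 to 5.1; limma, adjusted p = 0.406). Neither passed. Against Axin2 cells 0 of the 8 ligands and 2.3% of all genes were called, with 1 ligand and 14.1% of all genes at unadjusted p under 0.05 (limma). Against Pdgfra cells 0 ligands and 0.0423% of all genes were called, with 0 ligands and 12.7% of all genes at unadjusted p under 0.05 (limma). These 2 comparisons share the Axin2:Pdgfra libraries.

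Across the ligands the median difference was 1.39 for Axin2:Pdgfra minus Axin2 and 1.6 for Axin2:Pdgfra minus Pdgfra, beside 0.02 and 0.01 over all genes tested. With values under 6 raised to 6 these medians were 0.4 and 0.42, beside 0 and 0. No ligand passed in either comparison, and Wnt10b is set there against libraries at the lowest value. Nothing is read from these medians. Averaged over both pairs, lineages with the Axin2 label had 0 ligands called, beside 1.64% of all genes (limma). At unadjusted p under 0.05 there were 1 ligand and 17.5% of all genes. That was Wnt2b, at 9.32 with the Axin2 label and 7.31 without it, a difference of 2.01 ± 0.86 (limma, adjusted p = 0.244).

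Wnt9a, a ligand known from joint and limb formation, varied as much within lineages as between them. It was at 8.5 and 11.33 in Axin2:Pdgfra, 9.11 and 7.65 in Axin2, 8.25 and 7.91 in Pdgfra, 6.66 and 8.93 in Wnt2, and 9.78 and 8.57 in Negative libraries. All neighbouring lineages overlapped (limma F-test, adjusted p = 0.61).

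**Figure D4:**
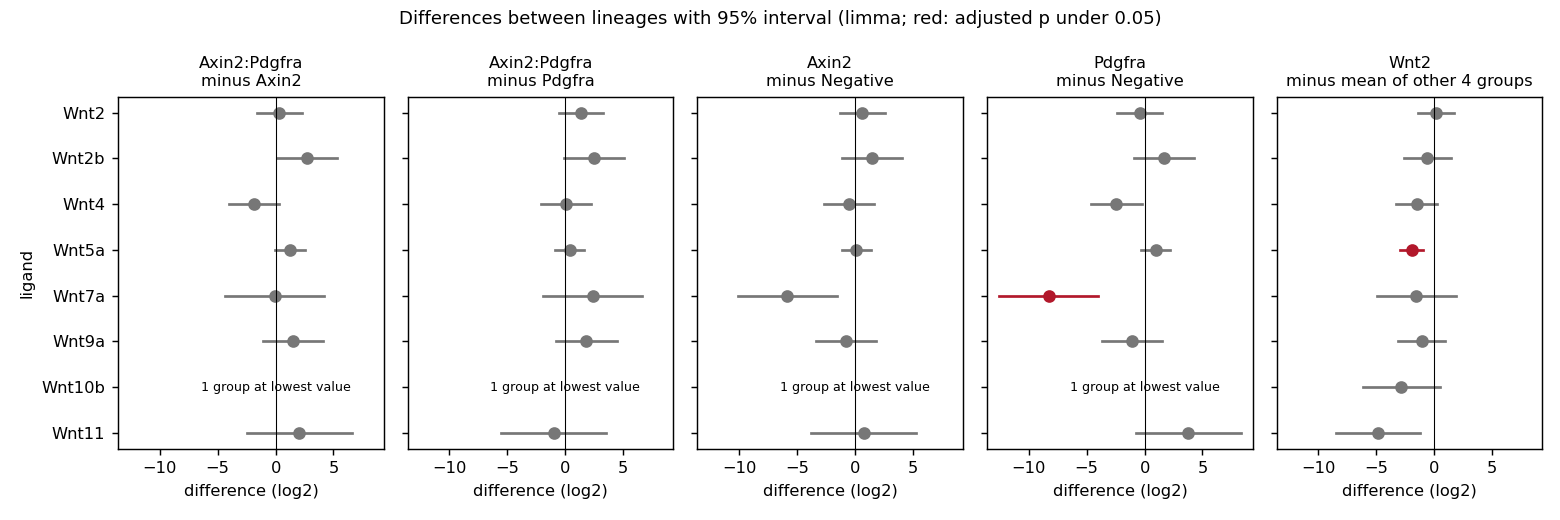
Difference of each ligand between lineages (log2, horizontal axis), with its 95% interval from limma, in 5 comparisons named above the panels; red marks an adjusted p under 0.05. Points are estimates from 2 libraries per lineage, and no estimate is drawn for Wnt10b where both libraries of a lineage were at the lowest value. Wnt7a in Pdgfra against Negative cells is drawn at -8.29, a size set by the lowest values (-3.64 with values under 6 raised to 6), and most intervals cross 0.

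The tables also held rows of Wnt3a and Wnt5b, the 2 remaining genes with a Wnt name, which were not on the list and were looked at after their values were known. Wnt3a, a beta-catenin ligand, was at 2.7 and 2.06 in Axin2:Pdgfra, 3.13 and 1.75 in Axin2, 1.55 and 8.4 in Pdgfra, 4.32 and 1 in Wnt2, and 8.61 and 10.41 in Negative libraries. Both Negative libraries exceeded the other 8, with a Pdgfra library close below. Wnt5b, the relative of Wnt5a, was at 8.32 and 7.99 in Axin2:Pdgfra, 8.6 and 7.95 in Axin2, 1.55 and 7.21 in Pdgfra, 3.7 and 6.96 in Wnt2, and 5.46 and 2.67 in Negative libraries. For Wnt5b the 4 libraries with the tdT label lay above the other 6, the nearest values being 7.95 and 7.21. The share of all genes split in this way was not counted, so nothing is read from it. Neither gene passed in any of the 9 tests; over the Axin2 label Wnt3a was at -4.83 ± 1.62 and Wnt5b at 3.99 ± 1.45 (limma, adjusted p = 0.143 and 0.174).

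Genes that act on Wnt ligands outside the cell also differed in the Wnt2 group. Of 9 genes of Wnt secretion and extracellular handling, 3 fell and 0 rose in Wnt2 cells against the other 4 groups (median -0.38 beside 0.13 over all genes, of which 1.44% were called lower). They were Sulf1 and Sulf2, sulfatases that trim heparan sulfate and so free bound Wnt proteins, and Gpc4, a heparan sulfate proteoglycan of the cell surface. Sulf1 was at 9.04 and 8.22 in Wnt2 libraries and at 8.81 to 12.67 in the others, overlapping 1 Negative library, a difference of -2.6 ± 0.5 (limma, adjusted p = 0.0138). Sulf2 was at 7.22 and 7.43 in Wnt2 libraries and at 8.79 to 12.07 in the others, without overlap (-3.45 ± 0.62, limma, adjusted p = 0.00983). Gpc4 was at 6.18 and 7.81 in Wnt2 libraries and at 6.89 to 13.23 in the others, overlapping both Pdgfra libraries (-3.34 ± 0.71, limma, adjusted p = 0.0251). The calls of all 3 ended without Wnt2 library 1 (limma, adjusted p = 0.0921, 0.153 and 0.531 for Sulf1, Sulf2 and Gpc4) or Wnt2 library 2 (0.292, 0.108 and 0.0819), and that of Gpc4 also without Axin2 library 2 (0.076) or Pdgfra library 2 (0.0539). Without both low-Xist libraries the adjusted p was 0.203 for Sulf1, 0.0597 for Sulf2 and 0.0971 for Gpc4. The F-test over lineages called Sulf1, Sulf2, Gpc4 and Gpc6, another cell-surface proteoglycan gene (limma, adjusted p = 0.00453, 0.0172, 0.00202 and 0.0293). Gpc6 was at 6 and 4.17 in Wnt2, 12.47 and 11.78 in Axin2:Pdgfra, 12.23 and 12.66 in Axin2, 8.68 and 10.8 in Pdgfra, and 10.02 and 2.67 in Negative libraries.

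Porcn and Wls, needed for the release of Wnt proteins, did not pass in any comparison. Porcn was at 11.16 and 11.68 in Axin2:Pdgfra, 9.05 and 7.85 in Axin2, 10.44 and 8.06 in Pdgfra, 10.02 and 9.67 in Wnt2, and 10.35 and 8.36 in Negative libraries, with both Axin2:Pdgfra libraries highest. Its difference between Axin2:Pdgfra and Axin2 was 2.97 ± 0.95 (limma, adjusted p = 0.135). Wls lay between 10.07 and 11.87 in all 10 libraries. Over the Pdgfra label Gpc4 fell by 4.07 (SE 0.64; limma, adjusted p = 0.00152), a call that held in all 10 fits with 1 library left out; 2 of the 9 genes passed over this label, 1 in each direction, beside 6.48% of all genes. Sulf1 rose with that label by 2.19 ± 0.45 (limma, adjusted p = 0.00849), a call that ended without Pdgfra library 1 (0.0514). In Pdgfra against Negative cells, Gpc4 differed by -4.72 ± 0.9 (limma, adjusted p = 0.0114); that call ended without Pdgfra library 1 (0.113) or Pdgfra library 2 (0.0675), without both low-Xist libraries (0.0591), with the replicate block (0.0503) and without eBayes trend or robust (0.0732).

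Of 16 Frizzled receptors and coreceptors with a row, 1 was called in a comparison between groups, Axin2:Pdgfra against Axin2, where 2.3% of all genes were called. The F-test over lineages also called 1 of the 16, beside 8.2% of all genes. Vangl2, a planar polarity gene, was at 6.89 and 7.56 in Axin2:Pdgfra and at 12.33 and 11.39 in Axin2 libraries, a difference of -4.64 ± 1.12 (limma, adjusted p = 0.0471). That call ended without any one of the Axin2:Pdgfra, Axin2 or Pdgfra libraries (0.0874 to 0.281), with values under 6 raised to 6 (0.0529), without eBayes trend or robust (0.215), with array weights (0.054) and with the index covariate (0.0737). Lrp5, a coreceptor, was at 13.99 and 14.41 in Pdgfra libraries and at 11.66 to 12.89 in the others (limma F-test, adjusted p = 0.0236).

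Of 7 genes of the R-spondin module, which sets how many Frizzled receptors stay at the surface, the receptors Lgr5 and Lgr6 were called by the F-test, beside 8.2% of all genes. In each of the comparisons below 1 of the 7 was called, where the share over all genes was 6.48% for the Pdgfra label, 2.3% for Axin2:Pdgfra against Axin2 and, among lower calls, 1.44% for the Wnt2 group. Lgr5 was at 11.52 and 9.96 in Axin2:Pdgfra, 9.8 and 9.09 in Pdgfra, 3.96 and 1.75 in Axin2, 4.07 and 1 in Wnt2, and 3.36 and 2.67 in Negative libraries. All 4 libraries with the GFP label thus lay above the other 6, a split whose share over all genes was not counted. Lgr5 passed the filter through these 4 libraries alone. A difference was thus built into its selection, and its calls are not used as support. With the Pdgfra label Lgr5 rose by 7.16 ± 1.26 (limma, adjusted p = 0.00329), or by 4.09 with values under 6 raised to 6. This call held in all 10 fits with 1 library left out. In Axin2:Pdgfra against Axin2 cells Lgr5 rose by 7.89 ± 1.78 (limma, adjusted p = 0.0342), or by 4.74 with values under 6 raised to 6; this call ended without any one of the Axin2:Pdgfra, Axin2 or Pdgfra libraries (0.0574 to 0.244). Lgr6 was at 1.95 and 3.35 in Wnt2 libraries and at 2.67 to 11.09 in the others, overlapping 1 Negative library (-6.22 ± 1.37, limma, adjusted p = 0.028). With values under 6 raised to 6 it was at -3.29 (0.0659), and its call held without either Negative library and ended without any one of the other 8 (0.0502 to 0.375). In the F-test the adjusted p was 0.0122 for Lgr5 and 0.0335 for Lgr6 (limma).

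Over the Axin2 label 1.64% of all genes were called. Of 8 secreted antagonists tested, Dkk3, a divergent member of the Dickkopf family, rose with the Axin2 label by 0.94 ± 0.22 (limma, adjusted p = 0.0466; F-test 0.0341). That call held without Negative library 0 (0.0166) and ended without any one of the other 9 (0.052 to 0.216). Of 9 genes listed as cell-intrinsic targets, Ccnd1, a cyclin gene, was at 8.2 to 10.45 with the Axin2 label and at 10.83 to 12.74 in Pdgfra and Negative cells (-2.8 ± 0.54, limma, adjusted p = 0.0225; F-test 0.0375). Its call ended without Axin2:Pdgfra library 2 (0.0651), Axin2 library 2 (0.118), Pdgfra library 1 (0.166), Pdgfra library 2 (0.058) or Negative library 2 (0.0676). Tcf4 also passed the F-test (limma, adjusted p = 0.0361), with 12.27 to 14.07 over all libraries; this symbol names an E protein gene and not the Wnt effector Tcf7l2. Without both low-Xist libraries the adjusted p was 0.155 for Dkk3 and 0.135 for Ccnd1.

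Axin2 itself, the feedback gene of the beta-catenin route, was at 12.04 and 9.54 in Axin2:Pdgfra and 10.47 and 11.57 in Axin2 libraries, against 10.07 to 11.38 elsewhere (limma F-test, adjusted p = 0.841). Lef1, a beta-catenin target and effector, was at 5.75 and 10.99 in Axin2:Pdgfra, 10.81 and 12.26 in Axin2, 8.4 and 6.74 in Pdgfra, 7.22 and 7.18 in Wnt2, and 12.47 and 8.31 in Negative libraries. It did not pass over lineages (limma F-test, adjusted p = 0.237) or over the Pdgfra label (-2.99 ± 1.11, limma, adjusted p = 0.138).

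**Figure D5:**
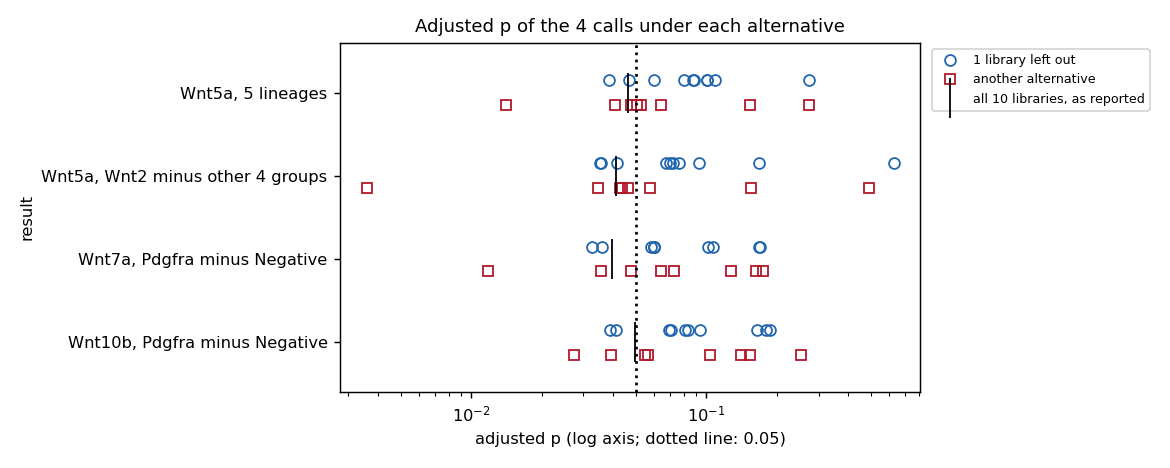
Adjusted p (log axis) of the 4 ligand calls with all 10 libraries (black bar), with 1 library left out (circles) and under each other alternative (squares); the dotted line is the threshold of 0.05. Each call has points on both sides of the line, and for Wnt5a in the Wnt2 group the values reach 0.628.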

How the data were processed

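The submitters' processing notes name STAR, limma and the build mm9; the sources used here give no versions, annotation or counter and do not say how limma was used. The authors deposited a single log2 value per Ensembl gene and library. This scale was inferred from the values, whose near-identical distributions resemble quantile normalization. Without counts the depth is unknown and counting error could not be estimated; differences of low genes depend partly on the lowest value of a library. Symbols were matched to 14720 of 14854 identifiers. Groups and replicate numbers came from the labels, mostly titles, and for Pdgfra library 1 from its lineage label.

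The filter kept 14177 genes that reached a log2 value of 6 in 2 or more libraries. All 10 libraries entered 1 linear model with a mean per group and no covariate (5 residual degrees of freedom), fitted with limma 3.58.1 in R 4.3.3 (eBayes, trend and robust options on). The tests were two-sided, p-values were adjusted by Benjamini-Hochberg (BH) over all genes within each of 9 tests, and the threshold was 0.05. The script was tested on simulated data. Marker levels are log2 of summed linear values. All listed ligands with a row are named; other pathway genes are named where they passed, besides Porcn, Wls, Axin2 and Lef1; the most alike genes were the 3 with the highest Pearson's r to a ligand past the F-test. The ligands, lists and tests were chosen with earlier results of these data known. Alternatives were the filter, the lowest values, the eBayes options, library weights, replicate and index terms, and libraries left out. The RefSeq promoters are on GRCm38.p6; no coordinates come from the deposited tables.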

Additional observations from a re-analysis of the deposited data

How the results depend on the processing

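The F-test over lineages called 1 ligand. It called 2 with no filter (Wnt5a and Wnt10b) and 2 with values under 6 raised to 6 (Wnt7a and Wnt10b), and 0 with eBayes without trend or robust, with the replicate block, with the i5 index of the libraries as covariate, or without both low-Xist libraries (Negative library 2 and Wnt2 library 2). Pdgfra minus Negative called 2 ligands, 1 with the index covariate (Wnt7a), and 0 with a filter of 8, without trend or robust, with array weights, with the replicate block, or without both low-Xist libraries. The Wnt2 comparison called 1, 2 with array weights (Wnt5a and Wnt11), and 0 without trend or robust, with the index covariate, or without both low-Xist libraries. With values under 6 raised to 6, Axin2 minus Negative and the Pdgfra label each called 1 (Wnt7a) in place of 0. That setting leaves Wnt7a no spread among the labelled libraries. With 1 library left out, the counts ranged over 0 to 1 for the F-test, 0 to 2 for Pdgfra minus Negative and 0 to 1 for the Wnt2 comparison; the other 6 comparisons stayed at 0. The cause of these changes was not tested.

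The 31 single-gene results recomputed gave 558 values under these alternatives, of which 426 kept direction and side of the threshold, 120 lost the call and 10 gained one. Without eBayes trend or robust, the Wnt2-group calls of Sulf1 (limma, adjusted p = 0.109), Sulf2 (0.0979), Gpc4 (0.131) and Lgr6 (0.147) ended, as did those of Sulf1 over the Pdgfra label (0.0611) and of Dkk3 (0.275) and Ccnd1 (0.158) over the Axin2 label. Array weights and the index covariate ended the calls of Lgr5 in Axin2:Pdgfra against Axin2 (0.054 and 0.0571) and of Dkk3 (0.0727 and 0.081), and raising values to 6 ended that of Dkk3 (0.0507). The 2 that reversed were of Wnt2 in the Wnt2 group, at -0.18 without Pdgfra library 1 and -0.04 without Wnt2 library 2; with 1 library left out this difference ranged from -0.18 to 0.48, against 0.15 with all libraries.

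With the replicate block the adjusted p (limma) was 0.0526 for Wnt5a over lineages, 0.0438 for Wnt5a in the Wnt2 group, 0.174 for Wnt7a and 0.153 for Wnt10b in Pdgfra against Negative. Same-numbered libraries did not deviate together: r was -0.0606 to 0.0279 over 6 pairs of groups, above 0 in 2 of them. Negative library 0 had no partner and was alone in its block, which in effect left it out. The Negative group thus rested on 1 library in the fit with the replicate block. A fit that leaves 1 library in a lineage assumes that it varies like the others. The lowest value of each library limits what can be seen of Wnt7a, Wnt10b and Wnt11. It also limits Wnt2b in Negative library 2, where Wnt2b was at 5.55, the next value above the lowest.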
